A study of Mus musculus with 40 samples.

Results

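Mammary glands taken 3 months after a lactation had activated the SV40 oncogene (3M) were compared with resting control glands. The comparison used the 5 arrays that the sample titles mark as 3M and the 10 control arrays, out of 40 arrays from 40 mice in 8 groups. The 3M glands came from WAP-TNP8 mice, in which the SV40 T/t-antigen is made from the promoter of the whey acidic protein gene (Wap) in mammary epithelial cells. The controls were 5 glands of WAP-TNP8 mice that had not yet lactated (before activation) and 5 glands of wild type BalbC mice without the transgene. Each array held whole breast tissue of a different mouse, snap frozen, and the ages of the mice are not given in the sources used here. The wild type glands are not labelled by lactation, and no group is labelled as wild type after a lactation, so an active transgene and a past lactation cannot be told apart in this comparison.

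The Wap promoter is active in the alveolar epithelium in late pregnancy and lactation, when prolactin acts through Jak2 and Stat5 to turn on the caseins and other milk proteins. After weaning these cells normally die and the gland returns to ducts in fat. The large T-antigen binds the retinoblastoma proteins, which frees E2F transcription factors and with them the genes of DNA replication, and it binds p53. Genes of the later cell cycle, in G2 and mitosis, are mostly held down by a complex that binds the CHR element of their promoters, often next to CCAAT boxes.

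The promoters of milk, mitotic and replication genes are shown because most members of each of these groups were higher on the 3M arrays. RefSeq windows of 300 bases (250 before and 50 after the start of a gene, GRCm38.p6) were searched on both strands for TTCNNNGAA, the core that Stat5 binds, TTTGAA (CHR), CCAAT, and for E2F the word TTCCCGC or its variants with other inner letters, namely TTGGCGC, the word TTCGCGC, and the word TTGCCGC. The first window that the table lists for a gene was used. The core of Stat5 was found in 4 of 8 milk protein genes with a window (Csn1s1, Csn1s2a, Csn2 and Glycam1), against 8.47% of all 27025 genes of the table. Of these 8, Glycam1 and Wfdc3 did not pass the test of 3M against controls. The CHR word was found in 64.4% of 45 kinetochore and mitotic kinase genes, against 18.1% of all genes. CCAAT was found in 71.1% of these genes, 63% of the replication genes and 62.5% of the milk protein genes, against 37.9% of all genes. An E2F word was found in 66.7% of 27 replication genes, against 9.69% of all genes. These counts describe the letters of the windows and were not tested. Neither Wap nor Lalba had the Stat5 core in its window. In the casein promoters that follow, capitals mark the Stat5 core, which in Csn1s2a lies after the start of the gene.
Csn2 (chr5:87699376-87699675, minus strand): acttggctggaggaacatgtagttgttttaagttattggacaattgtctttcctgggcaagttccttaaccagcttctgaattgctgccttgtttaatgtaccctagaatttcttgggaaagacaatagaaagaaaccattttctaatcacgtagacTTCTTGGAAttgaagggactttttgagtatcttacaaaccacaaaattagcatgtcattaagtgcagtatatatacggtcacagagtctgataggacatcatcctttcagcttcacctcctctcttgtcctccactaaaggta
Csn1s1 (chr5:87665958-87666257, plus strand): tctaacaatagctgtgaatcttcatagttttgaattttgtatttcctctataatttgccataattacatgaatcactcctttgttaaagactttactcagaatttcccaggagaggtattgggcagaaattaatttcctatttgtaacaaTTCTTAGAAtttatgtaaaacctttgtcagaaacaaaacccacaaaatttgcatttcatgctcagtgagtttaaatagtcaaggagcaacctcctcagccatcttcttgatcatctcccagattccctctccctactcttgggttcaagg
Csn1s2a (chr5:87774200-87774499, plus strand): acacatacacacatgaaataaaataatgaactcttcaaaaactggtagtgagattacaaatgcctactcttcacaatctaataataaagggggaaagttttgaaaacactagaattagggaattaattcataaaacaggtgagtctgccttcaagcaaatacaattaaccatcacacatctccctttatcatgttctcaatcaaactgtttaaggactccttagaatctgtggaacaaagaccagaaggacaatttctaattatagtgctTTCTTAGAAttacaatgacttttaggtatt
In the promoter of the kinetochore gene Cenpf, capitals mark the CHR word and both CCAAT words, and in that of the replication checkpoint gene Clspn they mark the E2F word and both CCAAT words, all read on the opposite strand.
Cenpf (chr1:189688037-189688336, minus strand): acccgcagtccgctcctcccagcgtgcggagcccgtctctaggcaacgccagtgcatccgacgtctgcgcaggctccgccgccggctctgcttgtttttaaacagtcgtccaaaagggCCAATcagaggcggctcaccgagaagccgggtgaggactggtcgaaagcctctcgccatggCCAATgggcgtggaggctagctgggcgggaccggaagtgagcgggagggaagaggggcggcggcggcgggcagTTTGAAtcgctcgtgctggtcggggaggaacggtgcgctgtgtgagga
Clspn (chr4:126556730-126557029, plus strand): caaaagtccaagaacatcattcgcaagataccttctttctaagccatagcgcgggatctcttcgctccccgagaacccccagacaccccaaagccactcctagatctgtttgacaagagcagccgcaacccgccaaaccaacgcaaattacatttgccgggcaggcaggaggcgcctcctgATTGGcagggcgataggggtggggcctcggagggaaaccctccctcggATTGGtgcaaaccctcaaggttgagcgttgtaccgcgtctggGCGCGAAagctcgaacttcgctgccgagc

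Several arrays stood apart in ways that touch the results. Before activation replicate 1 carried casein messages (Csn2 at 10.95, Csn1s1 at 10.87 and Csn1s2a at 8.36 log2 intensity) and high mitotic genes. Its title marks it as a negative control, a group that the study describes as mice before lactation. The array was also highest in its group for Muc15 (13.14) and Muc1 (9.56). Its Lalba, Car6, Pigr and Wap levels lay among the other controls. Markers of T and B cells were high on 3M replicates 2 and 5, wild type replicate 2 and before activation replicates 2 and 5. The mean of 12 T cell genes on those 5 arrays was 8.1 to 9.4, against 4.0 to 4.9 on the other 10. Wild type replicates 4 and 5 and before activation replicate 5 had little of the spike-ins added before labelling. For Gapdh the probe set at the 3-prime end exceeded that at the 5-prime end by 2.87 to 3.04 on the 3M arrays, against 1.90 to 2.93 on the controls. The part of the spike-in and 3-prime differences in the results was not tested. In whole tissue, fewer cells of a type and less RNA per cell cannot be told apart. The reference gene Actb was at 14.49, 15.24, 14.51, 14.75 and 15.53 on the 3M arrays, and the controls ran from 14.25 to 15.61, median 14.86, so the groups overlapped (-0.01 ± 0.24, adjusted p = 0.991). For Actb, a second and dimmer probe set gave 0.96 ± 0.52 (adjusted p = 0.392).

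Of 45037 probe sets, 262 (0.582%) were at least 5-fold higher at an adjusted p of at most 0.01 in limma, and 8 (0.0178%) were lower by that measure. Differences are 3M minus controls on the log2 scale, with the standard error of the fit, and levels are log2 intensities. The calls covered 182 genes that were higher and 3 that were lower. Of the 182, 59 belonged to 6 lists of genes of replication, mitosis and repair, and 14 to the lists of milk genes. At an adjusted p of 0.05 with no fold limit, 997 of 18193 genes (5.48%) were higher and 796 (4.38%) lower, and this looser limit is used for the gene lists. The groups were fully separated, with every 3M array above every control, in 507 genes (2.79%), and every 3M array lay below every control in 228 (1.25%). These shares are the background of every count of list members below. The lists were chosen with earlier results of these data known, so those counts are a description. The controls of 51.9% of the called probe sets averaged below 5, close to the floor of the summaries, where a fold change depends on that floor.

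The number of calls depended on the choice of controls. Against wild type alone 252 probe sets were called higher and 12 lower, and 216 of these 264 were among the 270. Against before activation alone 40 were called higher and 1 lower, with 39 shared. All 270 kept their direction in both, which their selection on a large difference from both control groups together made likely beforehand. Without before activation replicate 1 there were 315 calls, 265 of them shared. Without the 5 arrays of high T and B cell markers 87 were higher and 4 lower, and without the 3 arrays of low spike-ins 124 were higher and 1 lower. Leaving out 3M replicate 1 left 151 higher, and leaving out 3M replicate 3 left 174. Of 87 genes named by rule that passed an adjusted p of 0.05, 31 did not with before activation alone, with direction kept: Wap, Ltf, Ccna2, Cenpf, Nusap1, Pbk, Dut, Foxm1, S100a8, S100a9, Cp, Cxcl10, Ifit2, Oas1a, Jchain, Msr1, Cldn7, Ehf, Lypd3, Tbx3, Lipe, Pnpla2, Slc2a4, Cox8b, Eng, Tie1, Slc5a5, Acsm3, Zmat3, Phlda3 and Pdk1. Without 3M replicate 1, Foxm1, Msr1, Cox8b, Eng, Tie1, Phlda3, Jchain, Pdk1, Oas1a, Cxcl10 and Lypd3 did not pass an adjusted p of 0.05. The last 5 of these were also lost without one or more controls. Jchain was lost without any 1 of the 3M replicates, Pdk1, Oas1a and Lypd3 without replicates 1, 2, 3 or 5, and Cxcl10 without replicates 1, 2 or 5. Eng and Tie1 were lost without 3M replicates 3 or 4 as well, Cox8b without replicate 2, and Phlda3 without replicates 2, 3 or 5.

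Milk protein genes stood at the top of the list. The beta-casein gene Csn2 was at 16.19, 15.67, 15.98, 15.88 and 16.09 on the 3M arrays, against 2.24 to 10.95, median 2.33, in the controls (12.76 ± 1.20, adjusted p = 6.7e-05). The control at the top of that range was before activation replicate 1, and the other 9 controls reached no more than 2.50. Csn1s1, an alpha-casein gene, followed with 15.60, 14.98, 15.44, 14.93 and 15.86, against 2.39 to 10.87, median 2.46, in the controls (11.91 ± 1.16, adjusted p = 8.27e-05). For Csn1s2a the 3M arrays gave 15.84, 13.94, 14.94, 15.20 and 15.88 and the controls 2.37 to 8.36, median 3.19, again with replicate 1 of before activation highest (11.53 ± 0.78, adjusted p = 2.65e-06). Of 4 other Csn1s2a probe sets, 3 were higher and 1 lay at the floor in both groups. The groups of these caseins did not overlap.

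Csn1s2b, Lalba and Wap were no higher on that casein-bearing array than on the other controls. Csn1s2b, a casein gene next to Csn1s2a on chromosome 5, read 7.77, 7.81, 9.96, 8.22 and 8.81 in 3M, against 2.33 to 3.66, median 2.97, in controls (5.63 ± 0.31, adjusted p = 5.53e-07). Lalba, which encodes the alpha-lactalbumin subunit of lactose synthase, read 7.78, 7.86, 8.57, 6.63 and 11.38 in 3M, against 2.80 to 3.97, median 2.86, in controls (5.43 ± 0.55, adjusted p = 0.000101). The 3M arrays varied widely here, with replicate 5 far above the others and replicate 4 lowest. Wap, whose promoter drives the transgene, also spread widely, at 9.68, 6.44, 8.69, 6.22 and 10.61 in 3M, against 4.40 to 4.80, median 4.55, in controls (3.74 ± 0.57, adjusted p = 0.00169). Replicates 2 and 4 had the least Wap, yet both lay above every control.

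Csn3 and Ltf were already bright in resting glands. The kappa-casein gene Csn3 was at 15.90, 15.60, 15.96, 15.42 and 16.11, against 10.98 to 13.77, median 11.82, in controls (3.93 ± 0.38, adjusted p = 8.11e-05). Ltf, which encodes the iron-binding milk protein lactoferrin, was at 15.80, 15.37, 15.64, 14.04 and 15.89, against 9.60 to 13.99, median 12.73 (2.90 ± 0.57, adjusted p = 0.00737), with 3M replicate 4 close to the highest control. Of 10 milk protein genes with a probe set, these 8 were higher, none was lower and the median difference was 4.68, against 0.007 over all genes. All 8 were also called 5-fold, as were 1.00% of all genes. Glycam1 and Wfdc3 did not pass the test. Glycam1, which is also made by the high endothelial venules of lymph nodes, was at 8.44, 15.49, 9.18, 5.16 and 14.58 in 3M, against 3.34 to 15.40, median 5.29 in controls, and its levels above 14 in either group fell on the 5 arrays with high T and B cell markers (2.90 ± 2.63, adjusted p = 0.745). Wfdc3 stayed between 2.41 and 4.50 (0.43 ± 0.20, adjusted p = 0.261). Without before activation replicate 1 the same count of 8 was reached, and without the arrays of high lymphocyte markers 7 passed.

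**Figure D1:**
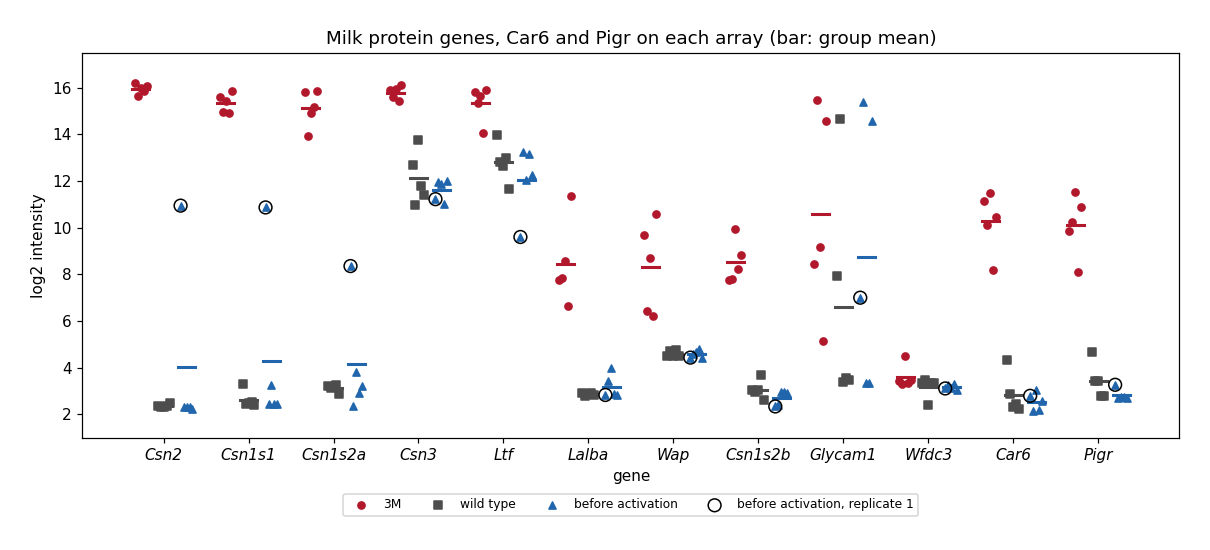
Log2 intensity (vertical axis) of 10 milk protein genes, Car6 and Pigr (horizontal axis) on each 3M, wild type and before activation array, 1 point per array and a bar at each group mean, with before activation replicate 1 ringed. Csn2 lay at 15.67 or above on all 3M arrays, against at most 2.50 on 9 controls and 10.95 on the ringed array, while Lalba, Wap, Csn1s2b, Car6 and Pigr of the ringed array lay with the other controls.

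Genes of milk fat and secretion were divided. Of 16 with a probe set, 8 were higher and 1 was lower, with a median difference of 0.95. Car6, a carbonic anhydrase secreted into saliva and milk, had a larger difference than any other gene of this list. It was at 11.16, 10.10, 11.49, 8.19 and 10.47 in 3M, against 2.14 to 4.31, median 2.50, in controls (7.60 ± 0.47, adjusted p = 1.35e-06). Pigr, the receptor that carries IgA across epithelium into milk, was at 9.88, 10.26, 11.52, 8.09 and 10.87, against 2.68 to 4.67, median 2.77 (7.01 ± 0.47, adjusted p = 2.32e-06). For both genes the lowest 3M array, replicate 4, was above the highest control, wild type replicate 1, by more than 3 log2 units. Muc15, a mucin of the milk fat globule membrane, differed by 3.06 ± 0.35 (adjusted p = 0.000262) and the folate receptor gene Folr1 by 4.49 ± 0.57 (adjusted p = 0.000487). Olah, the thioesterase that releases the medium-chain fatty acids of milk, Btn1a1, the butyrophilin of the fat globule, Mfge8 and the lipase gene Cel were higher too, by 1.06 to 3.56. The sodium, potassium and chloride cotransporter gene Slc12a2 was lower (-1.19 ± 0.26, adjusted p = 0.0147), but not with before activation alone (adjusted p = 0.12) or without the arrays of high lymphocyte markers (adjusted p = 0.199). Xdh, Plin2 and Fabp3, which take part in making fat droplets, did not pass (-0.36, -0.01 and 0.84).

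Of 11 regulators of lactation only Elf5, a transcription factor of alveolar cells, passed the test, and 2 passed without wild type replicate 2, wild type replicate 4 or 3M replicate 2. Elf5 was at 13.55, 12.60, 13.32, 12.81 and 13.87, against 9.02 to 11.66, median 10.07, in controls (3.07 ± 0.34, adjusted p = 0.000213), and the groups did not overlap. Stat5a, Stat5b and Jak2 differed by 0.22, 0.10 and -0.03 (adjusted p = 0.958, 0.956 and 0.959). Cish, a target of Stat5, differed by 0.69 ± 0.26 (adjusted p = 0.146), and the growth hormone receptor gene Ghr by -0.35 ± 0.16 (adjusted p = 0.243). Of 2 dimmer Ghr probe sets, 1 was lower (-1.51 ± 0.38, adjusted p = 0.0279).

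Other genes with large differences had no place in the milk lists. 2310057J18Rik, a clone name that the rule for naming genes skipped and that was added after its values were seen, ranked after the 3 caseins. It was at 12.26, 13.20, 12.80, 10.47 and 10.003 in 3M, against 3.33 to 3.39, median 3.36, in controls (8.39 ± 0.42, adjusted p = 2.36e-07), and averaged 8.10 ± 1.88 in 2M and 13.37 ± 0.50 in 4M (SD, n = 5 each). Sult1d1, a cytosolic sulfotransferase gene, was at 9.18, 9.66, 10.67, 7.49 and 8.10 in 3M, against 2.26 to 2.99, median 2.84, in controls (6.25 ± 0.38, adjusted p = 1.24e-06). The controls of Sult1d1 lay within 1 log2 unit of each other, and every 3M array was above them. Apol7a, of the apolipoprotein L family, read 9.40, 8.52, 9.64, 6.88 and 9.33, against 2.72 to 5.21, median 3.63 (4.94 ± 0.49, adjusted p = 8.92e-05). Tc2n, which encodes a protein with C2 domains, read 9.37, 8.59, 9.23, 7.19 and 8.66, against 2.82 to 5.43, median 3.69 (4.82 ± 0.50, adjusted p = 0.000123). For Car6, Pigr, Sult1d1, Apol7a and Tc2n alike, 3M replicate 4 had the lowest value of the 5.

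The 6 marker genes of the study used here had been chosen by the study on these arrays, so their count of 6 higher of 6 is not independent evidence. The membrane mucin gene Muc1 was at 11.22, 11.05, 11.56, 10.23 and 11.88, against 7.09 to 9.59, median 7.71, in controls (3.17 ± 0.42, adjusted p = 0.000702). Rrm2, the inducible subunit of ribonucleotide reductase, was at 12.83, 11.91, 12.22, 11.88 and 12.38, against 6.19 to 10.05, median 8.75 (3.83 ± 0.65, adjusted p = 0.00319). The exonuclease gene Exo1 was at 7.74, 5.62, 6.60, 6.75 and 7.70, against 1.78 to 4.63, median 2.08 (4.33 ± 0.47, adjusted p = 0.00019). The highest controls of Rrm2 and Exo1 were replicate 1 of before activation, followed by arrays with high lymphocyte markers. Nusap1, a spindle protein gene, differed by 3.90 ± 0.74 (adjusted p = 0.0061). Depdc1a, a mitotic gene, was higher by 4.06 ± 0.41 (adjusted p = 0.000102). Foxm1, a transcription factor of the G2 phase, was dim, at 6.23, 4.87, 5.03, 4.68 and 6.10 in 3M, against 2.82 to 4.48, median 4.06, in controls (1.49 ± 0.34, adjusted p = 0.0166). A second Foxm1 probe set was higher by 0.45, and 2 more near the floor did not pass. Without the arrays of high lymphocyte markers Foxm1 did not pass (adjusted p = 0.113).

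Genes of cell division were higher in 3M almost throughout. Of 127 genes in 6 lists, 111 were higher, none was lower and the median difference was 2.39, and in 97 of them the groups did not overlap. With before activation alone as controls 57 of the 127 were higher, with wild type alone 105, without before activation replicate 1 112, without the arrays of high lymphocyte markers 99 and without those of low spike-ins 101. For comparison, 5.48% of all genes were higher at this limit, and in 2.79% every 3M array lay above every control. The 6 lists include Rrm2 and Exo1, which the study had chosen as markers on these arrays. The mean level of the 127 genes was 8.6 to 9.5 in 3M, 5.8 to 7.3 in wild type and 5.8 to 7.9 in before activation. The highest control, at 7.9, was before activation replicate 1, and controls with high T and B cell markers reached 6.8 to 7.3, so these markers and the division genes moved together among controls, although before activation replicate 4 had 6.9 without them. In 3M it was otherwise: replicates 2 and 5, with high T and B cell markers, had list means of 8.6 and 9.3, and the other 3 arrays 8.9 to 9.5.

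Among mitotic kinases, cyclins and kinesins, 30 of 32 were higher, with a median of 3.79. Ccna2, the cyclin of S and G2 phase, was at 11.23, 10.21, 10.99, 10.39 and 11.33, against 2.45 to 8.92, median 5.60, in controls (5.59 ± 1.00, adjusted p = 0.00423). The controls of Ccna2 spread over more than 6 log2 units, from wild type replicate 3 to before activation replicate 1, and none reached the 3M arrays. Cdc20, which activates the anaphase-promoting complex, was at 12.81, 12.07, 12.93, 11.93 and 13.12, against 7.32 to 10.82, median 8.65 (3.88 ± 0.51, adjusted p = 0.000648). The chromokinesin gene Kif4 varied less in controls, with 7.12, 5.79, 6.39, 5.75 and 7.24 in 3M, against 2.23 to 3.93, median 2.79, in controls (3.70 ± 0.30, adjusted p = 1.3e-05). Ect2, which starts cytokinesis, differed by 4.50 ± 0.56 (adjusted p = 0.000478) and the phosphatase gene Cdc25c by 3.66 ± 0.54 (adjusted p = 0.0013). Pbk, a mitotic kinase gene outside the list, was at 12.74, 11.69, 12.15, 12.24 and 12.16, against 4.00 to 9.93, median 7.18 (5.27 ± 0.89, adjusted p = 0.00298).

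Kinetochore and spindle checkpoint genes gave 20 higher of 21, with a median of 3.13. Cenpi, of the inner kinetochore, was at 8.96, 7.83, 8.01, 8.13 and 8.90, against 2.57 to 5.68, median 3.10, in controls (5.03 ± 0.45, adjusted p = 3.83e-05). Its highest control was before activation replicate 1, and the other 9 reached at most 3.70. Cenpf, whose promoter is shown above, was at 10.18, 8.53, 9.18, 8.98 and 9.54, against 2.47 to 8.21, median 4.12 (4.84 ± 0.87, adjusted p = 0.00449). The cohesin protector gene Sgo1, Spc24 and the checkpoint gene Mad2l1 differed by 4.15 ± 0.51, 3.86 ± 0.44 and 2.39 ± 0.22, and for each the groups did not overlap.

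Of 32 DNA replication genes 30 were higher, with a median of 2.07, below that of the mitotic list. Cdc45, of the replicative helicase, was at 7.83, 7.08, 7.83, 7.48 and 8.09, against 4.97 to 6.46, median 5.44, in controls (2.14 ± 0.22, adjusted p = 0.000121). Here the top control was wild type replicate 2. Another Cdc45 probe set differed by 0.11 and did not pass (adjusted p = 0.76). The primase gene Prim1 differed by 2.07 ± 0.23, Rpa2, which covers single-stranded DNA, by 1.51 ± 0.17, and Dtl, which marks the licensing factor Cdt1 for destruction, by 3.00 ± 0.33. Clspn, shown by its promoter, differed by 4.27 ± 0.57 (adjusted p = 0.000674). Lrr1, whose product takes the helicase off finished DNA, was at 9.27, 7.45, 8.69, 8.25 and 9.23, against 2.36 to 6.75, median 2.47 (5.45 ± 0.64, adjusted p = 0.000305). Other Lrr1 probe sets differed by 0.16 and 0.85 and did not pass (adjusted p = 0.522 and 0.12). Nucleotide synthesis gave 6 higher of 9, with Rrm1 at 1.62 ± 0.20 and the dUTPase gene Dut at 1.76 ± 0.30, and condensins and other chromosome proteins 9 of 10, with Ncapg at 4.49 ± 0.61, Smc2 at 2.30 ± 0.32 and Hmgb2 at 3.04 ± 0.41.

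**Figure D2:**
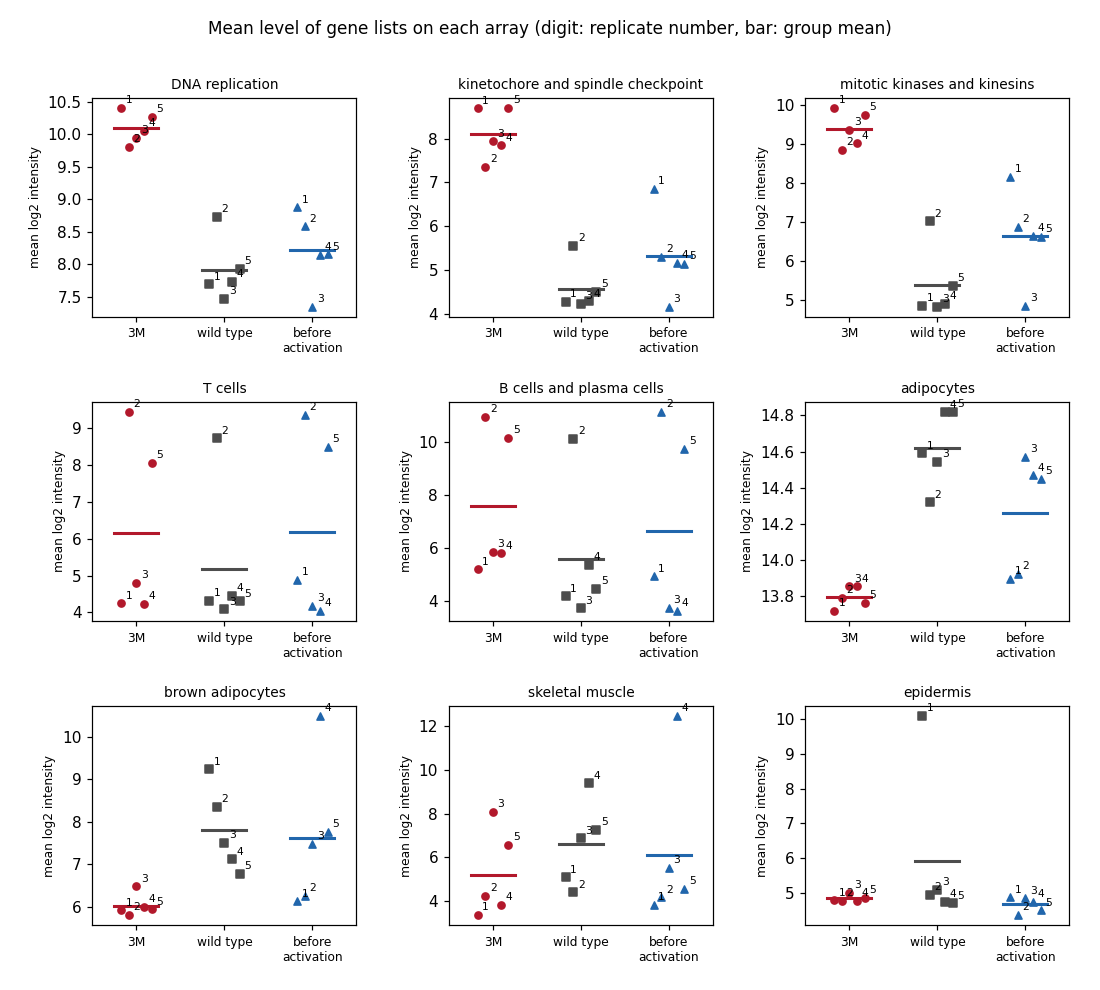
Mean log2 intensity (vertical axes, scales differ) of 9 gene lists on each array of 3M, wild type and before activation, with the replicate number beside each point and a bar at each group mean. The 3 division lists lay higher on all 3M arrays than on any control, while T and B cell means were high on replicates 2 and 5 of 3M, 2 of wild type, and 2 and 5 of before activation.

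DNA repair genes gave 16 higher of 23, with a median of 1.40. The recombination gene Rad54b was at 8.89, 7.17, 8.12, 7.45 and 7.75, against 2.97 to 4.48, median 3.20, in controls (4.50 ± 0.29, adjusted p = 1.51e-06). The helicase gene Blm differed by 2.13 ± 0.26 and Fanca, of the Fanconi anaemia complex, by 3.11 ± 0.38, and both were fully separated. In the E2F and Rb pathway 10 of 26 were higher (6 with before activation alone) and 1 was lower, with a median of 0.49. The lower member, the cyclin D3 gene Ccnd3 (-0.58 ± 0.13, adjusted p = 0.016), did not pass with before activation alone, in the fit of all 8 groups, with the methods' t-test, without the arrays of low spike-ins or without 3M replicates 1 or 3. The higher members included the repressor E2f8 (3.17 ± 0.52), Ccne2, a cyclin of the G1 to S transition (2.52 ± 0.37), the chromatin regulator Ezh2 (1.46 ± 0.23) and Lin9, a subunit of the complex at CHR elements (1.68 ± 0.17). Lin9 was at 8.25, 7.71, 7.70, 7.67 and 7.94, against 5.80 to 6.97, median 6.10, in controls (adjusted p = 9.82e-05), and no control reached the 3M arrays.

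Genes of the p53 pathway did not move as a group. Of 16 measured, none was higher and 2 were lower, with a median of -0.01. Without the arrays of high lymphocyte markers 2 were higher, and with before activation alone none was lower. Zmat3 was at 9.29, 9.33, 9.27, 9.21 and 9.13, against 9.39 to 10.03, median 9.67, in controls (-0.43 ± 0.09, adjusted p = 0.00995), a small difference between narrow groups. Phlda3, which restrains Akt, differed by -1.38 ± 0.34 (adjusted p = 0.0244). Cdkn1a and Mdm2, central targets of p53, differed by 0.11 and -0.09 (adjusted p = 0.958 in both).

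Genes of innate defence were higher in 7 of 17 cases, against 5.48% of all genes, with a median of 0.75 and none lower. In 1 of them every 3M array lay above every control, as in 2.79% of all genes. The count of higher genes was 1 with before activation alone, 2 with the methods' t-test, 3 without the arrays of high lymphocyte markers, and 4 with wild type alone or without the arrays of low spike-ins. Lcn2, which binds bacterial siderophores, was at 14.12, 13.84, 14.12, 13.38 and 14.78, against 10.77 to 12.44, median 11.64, in controls (2.44 ± 0.29, adjusted p = 0.000309). S100a8 and S100a9, the subunits of calprotectin of neutrophils and stressed epithelium, differed among the 3M mice. S100a8 was at 10.29, 10.94, 10.71, 5.78 and 8.69, against 4.63 to 6.11, median 5.20 (3.98 ± 0.66, adjusted p = 0.00267), so that 3M replicate 4 lay within the control range. S100a9 was at 7.57, 7.75, 7.29, 4.18 and 5.88, against 3.92 to 4.22, median 4.07 (2.46 ± 0.44, adjusted p = 0.00445). Ceruloplasmin (Cp) differed by 1.20 ± 0.25 (adjusted p = 0.0096), and 3 of 7 other Cp probe sets passed. Without the arrays of high lymphocyte markers S100a8, S100a9 and Ltf did not pass (adjusted p = 0.0545, 0.0713 and 0.0974). Of 12 interferon response genes Ifit2, Oas1a and Cxcl10 were higher, by 0.92 to 1.54, and no such gene passed with before activation alone, in the fit of all 8 groups, or without the arrays of high lymphocyte markers or of low spike-ins.

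Mmp12, the metalloelastase of macrophages, was the only member of 17 matrix proteases and inhibitors that passed, about the share of 5.48% higher over all genes. It was at 8.20, 7.44, 8.56, 9.39 and 8.99, against 3.01 to 5.07, median 3.49, in controls (4.81 ± 0.35, adjusted p = 5e-06), and every 3M array was above every control. Macrophage markers gave 2 higher of 17, against 5.48% of all genes, Gpnmb (2.44 ± 0.38, adjusted p = 0.00201) and the scavenger receptor gene Msr1 (1.87 ± 0.43, adjusted p = 0.0179), with a median of 0.29. The count was 1 with before activation alone or without 3M replicate 1, 4 with wild type alone, in the fit of all 8 groups, with the methods' t-test or without before activation replicate 2, and 5 after the filter on dim probe sets. Other Msr1 probe sets did not pass, the brightest of them at 0.53 ± 0.25 (adjusted p = 0.299). Csf1r and C1qa, which most macrophages express, differed by -0.36 and -0.34 and did not pass. The mean of the macrophage list was 9.29 to 10.03 in 3M and 8.45 to 9.91 in controls, and its part in the Mmp12 result was not tested. Jchain, which joins the units of secreted IgA and IgM, was at 14.13, 13.66, 14.27, 14.87 and 15.19, against 8.27 to 13.35, median 11.34, in controls (3.37 ± 0.89, adjusted p = 0.0375). Jchain no longer passed when any 1 of the 3M arrays was left out. The same held without wild type replicates 1 or 3 or before activation replicates 3 or 4. The plasma cell gene Mzb1 did not pass (2.83 ± 1.16, adjusted p = 0.198), but did without the arrays of high lymphocyte markers (adjusted p = 0.0106). Igha, the IgA heavy chain gene, lay outside the lists and was added after its values were seen. It was called 5-fold higher with before activation alone (4.02 ± 0.27, adjusted p = 0.00141). Other Igha probe sets differed by 3.65 ± 0.43 and 4.11 ± 0.46 from all controls (adjusted p = 0.000351 and 0.000224).

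Epithelial markers moved in both directions. Of 12 markers shared by luminal cells 6 were higher and 1 lower, with a median of 0.94. The adhesion gene Epcam was at 15.50, 14.71, 15.04, 14.58 and 14.999, against 12.99 to 14.36, median 13.63, in controls (1.35 ± 0.22, adjusted p = 0.00228). The transcription factor genes Grhl2 and Ehf differed by 1.60 ± 0.20 and 2.37 ± 0.39, and the tight junction gene Cldn7 by 1.63 ± 0.30. Other Grhl2 probe sets did not pass, the brightest of them at 0.25 ± 0.11 (adjusted p = 0.255). Cldn4 was lower (-1.18 ± 0.26, adjusted p = 0.0128), but not with wild type alone (adjusted p = 0.0887) or without the arrays of high lymphocyte markers (adjusted p = 0.103). The keratin genes Krt8 and Krt18 differed by 0.18 and 0.36 without passing. Of 6 markers of hormone-sensing luminal cells none was higher and 2 were lower, with a median of -1.17. Foxa1, a cofactor of the oestrogen receptor, was at 11.07, 11.13, 10.88, 11.11 and 10.47, against 11.99 to 13.46, median 12.55, in controls (-1.67 ± 0.22, adjusted p = 0.000669), and all 3M arrays were below all controls. Tbx3 was likewise separated (-1.38 ± 0.28, adjusted p = 0.00802), while the progesterone receptor gene Pgr overlapped (-1.46 ± 0.48, adjusted p = 0.0947). Among 8 luminal progenitor markers Elf5, Cd14 (1.47 ± 0.19) and Lypd3 (1.72 ± 0.49) were higher and none was lower. The count of higher markers was 2 with either control group alone, and 4 without before activation replicate 1. It was also 2 without the arrays of high lymphocyte markers or those of low spike-ins. The progenitor list means overlapped: before activation replicate 1, at 10.745, lay above 3M replicates 2 to 5 (10.131 to 10.675). The other controls reached at most 9.85. None of 13 basal and myoepithelial markers passed, and Krt14 differed by 0.87 ± 0.42 (adjusted p = 0.314).

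Adipocyte genes were lower in 7 of 18 cases and higher in none, with a median of -0.62. Over all genes 4.38% were lower, and in 1.25% every 3M array lay below every control. Acaca, which makes malonyl-CoA for fatty acid synthesis, was at 13.32, 13.34, 12.69, 12.82 and 12.70, against 13.75 to 15.02, median 14.61, in controls (-1.55 ± 0.21, adjusted p = 0.000777). The lipase gene Lipe was at 10.02, 10.03, 10.17, 9.65 and 10.22, against 10.52 to 12.41, median 11.66 (-1.60 ± 0.27, adjusted p = 0.00316). Both were fully separated, as was Pnpla2, the first lipase of stored fat (-1.12 ± 0.19, adjusted p = 0.00293). The glucose transporter gene Slc2a4, Pparg, Fasn and Cidec were lower as well, by 0.71 to 1.23 in size, and Adipoq, Fabp4 and Lpl did not pass (-0.32, -0.27 and 0.02). The list mean was 13.7 to 13.9 in 3M, against 14.3 to 14.8 in wild type and 13.9 to 14.6 in before activation, whose replicates 1 and 2 came near the 3M arrays. With before activation alone as controls 1 of the 18 was lower, and with wild type alone 8.

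Of 7 brown fat genes Cox8b was lower (-1.45 ± 0.34, adjusted p = 0.0197), and Ucp1, which uncouples respiration, did not pass (-3.08 ± 1.41, adjusted p = 0.267). Of 14 endothelial genes 3 were lower, Robo4 (-1.10 ± 0.16), Eng (-0.88 ± 0.20) and Tie1 (-1.08 ± 0.27), with a median of -0.49. Over all genes 4.38% were lower. The endothelial count was 1 with before activation alone and 5 without the arrays of high lymphocyte markers. None of 16 fibroblast and matrix genes passed, although all 16 differences were below 0, with a median of -0.33. The genes called 5-fold lower were Itih2, Slc5a5 and Acsm3. Itih2, a heavy chain that binds hyaluronan, was at 4.38, 2.56, 2.38, 3.76 and 2.35, against 5.50 to 8.27, median 6.54, in controls (-3.50 ± 0.46, adjusted p = 0.000648). Slc5a5, the iodide transporter that lactating glands use, was at 5.39, 5.35, 8.08, 5.90 and 5.68, against 6.77 to 10.98, median 9.08 (-3.09 ± 0.60, adjusted p = 0.00722), with 3M replicate 3 inside the control range. Acsm3, which activates medium-chain fatty acids in mitochondria, was at 5.56, 5.62, 5.00, 5.91 and 5.32, against 6.33 to 9.30, median 7.73 (-2.37 ± 0.40, adjusted p = 0.00304).

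Lists of carbon metabolism and early response had few members that passed. Of 16 glycolysis and hypoxia genes, the carbonic anhydrase gene Car12 (3.60 ± 0.46) and Ndrg1 (1.50 ± 0.19) were higher and Pdk1 (-1.08 ± 0.28) was lower, and Ldha did not pass. Vegfa and Slc2a1 did not pass on their brightest probe sets (-0.57 and 0.64), while a dimmer one of Vegfa was lower (-1.54 ± 0.33, adjusted p = 0.0114) and a dimmer one of Slc2a1 higher (0.80 ± 0.23, adjusted p = 0.0489). None of 12 cholesterol synthesis genes and none of 12 immediate early genes passed. Of the cholesterol genes 2 were lower with wild type alone or in the fit of all 8 groups. In other settings 1 was lower: the methods' t-test, the filter on dim probe sets, the intensity trend, or without before activation replicates 1 or 2. With that filter or the replicate block 1 immediate early gene was higher. T cell markers (none of 12), skeletal muscle (none of 12), epidermis (none of 6) and erythrocyte genes (none of 3) did not pass either. Muscle genes averaged 3.3 to 8.1 in 3M, against 12.5 on before activation replicate 4, and epidermal genes 4.8 to 5.0 in 3M, against 10.1 on wild type replicate 1.

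**Figure D3:**
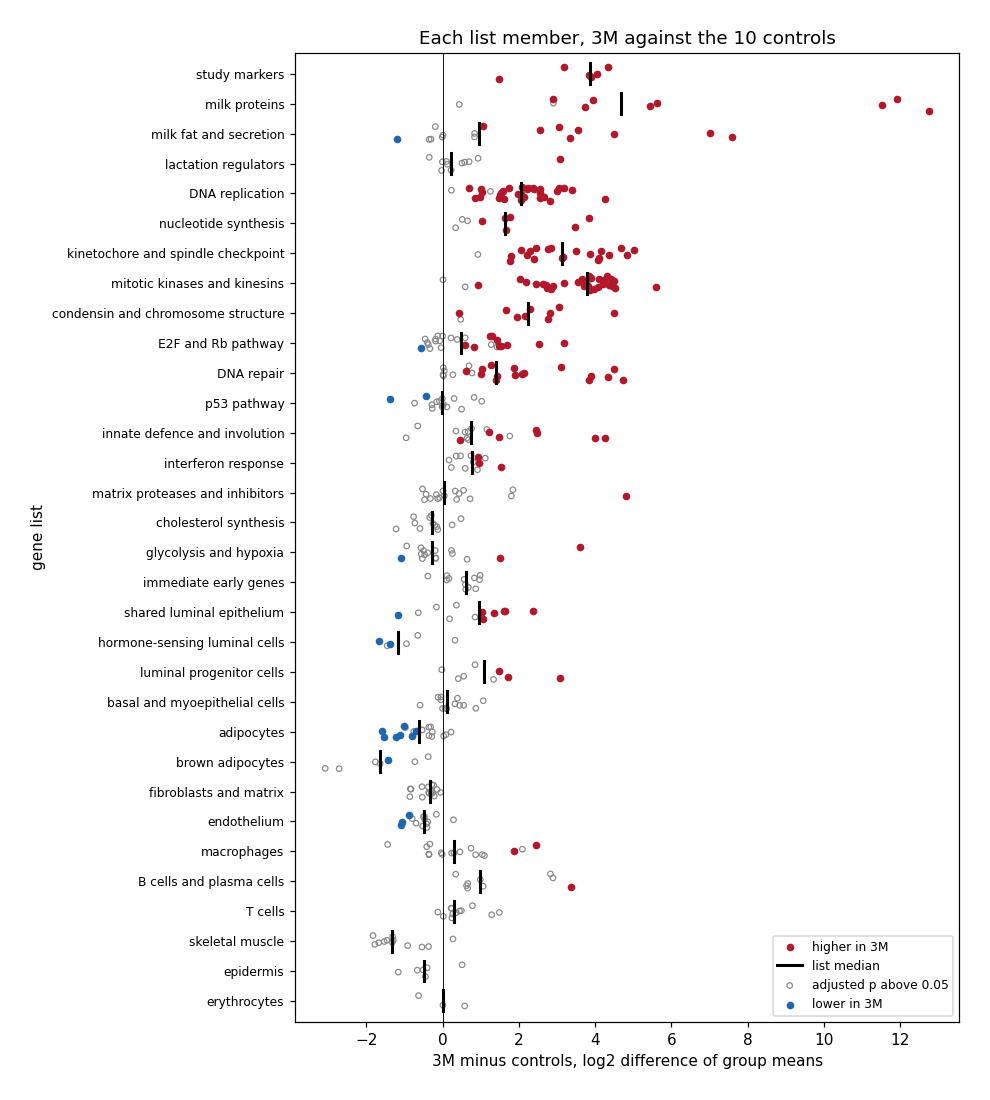
Difference of each list member (3M minus the 10 controls, log2, horizontal axis) in 32 gene lists (vertical axis), filled for members that passed an adjusted p of 0.05 and open for the others, with a bar at each list median. The milk protein and division lists lie to the right of 0, with medians of 4.68 for milk proteins and 3.79 for mitotic kinases, and adipocyte genes to the left, with a median of -0.62.

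The neighbouring months were compared to ask whether 3M differed from them. Between 3M and 2M, 0 of 45037 probe sets (0.00%) passed an adjusted p of 0.05 in limma, the smallest adjusted p was 0.0545, and 1866 (4.14%) had an unadjusted p under 0.05. Between 3M and 4M, 0 (0.00%) passed, the smallest adjusted p was 0.133, and 5898 (13.1%) had an unadjusted p under 0.05. That count depended on single arrays: without 3M replicate 5, 218 probe sets were higher and 167 lower than in 4M, and without 3M replicates 2 and 5 and 4M replicate 2, the arrays with more T and B cell markers, 383 were higher and 288 lower. Replicate 2 of 4M also stood apart in RNA quality, with a 3-prime excess of 4.85 for Gapdh and 5.40 for Actb, against 2.26 to 3.42 and 2.05 to 2.67 on the other 4M arrays, and had the most spike-in of the 4M group. In 1 fit over all 8 groups 52 were higher and 25 lower. Csn2 averaged 15.99 ± 0.16 in 2M, 15.96 ± 0.20 in 3M and 15.91 ± 0.24 in 4M (SD, n = 5 each).

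Some genes with large differences from controls had unequal means over the months. Sult1d1 averaged 5.74 ± 1.05 in 2M, 9.02 ± 1.26 in 3M and 9.66 ± 0.48 in 4M (SD), so 3M was higher than 2M by 3.28 ± 0.70 (adjusted p = 0.688). Car6 averaged 8.24 ± 0.92 in 2M, 10.28 ± 1.29 in 3M and 12.88 ± 0.62 in 4M (SD), and 3M minus 4M was -2.59 ± 0.61 (adjusted p = 0.188). S100a8 averaged 6.03 ± 1.26 in 2M, 9.28 ± 2.15 in 3M and 7.05 ± 1.63 in 4M (SD), and 3M minus 2M was 3.25 ± 1.06 (adjusted p = 1). None of these passed the adjustment over all probe sets. The 127 division genes had a median difference of 0.58 from 2M, with 122 above 0, and of 0.19 from 4M, with 92 above 0, beside medians over all genes of 0.00699 and 0.0179. Since the 3M arrays are common to both comparisons, and no member passed in either, these medians are a description. T cell markers were high on 2M replicates 2 to 5 (list means of 7.39 to 9.16), against 2 of the 5 3M arrays, and the T and B cell lists had median differences of -1.26 and -1.55 from 2M, whose part in the division genes was not tested.

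**Figure D4:**
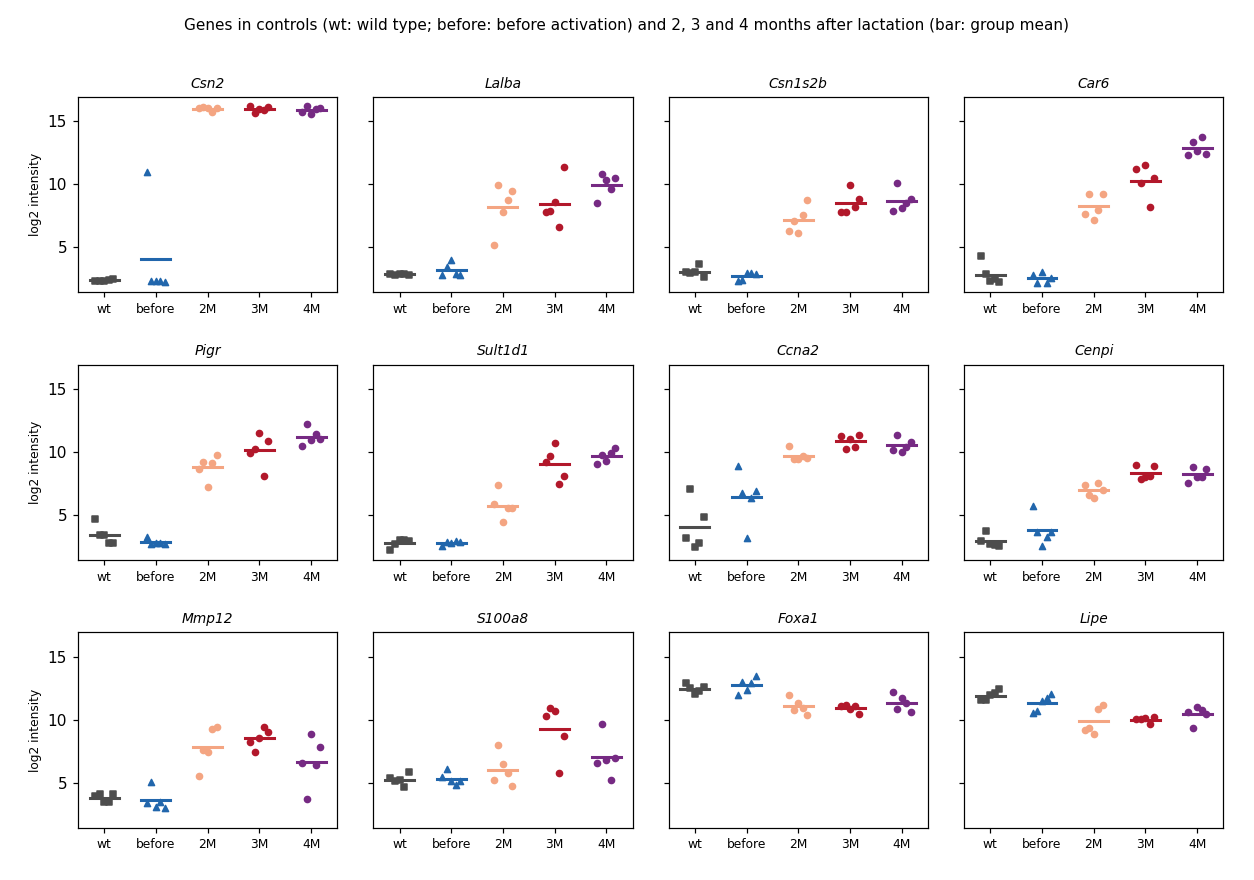
Log2 intensity (vertical axes) of 12 genes in wild type (wt), before activation (before), 2M, 3M and 4M glands (horizontal axes), 1 point per array and a bar at each group mean. Csn2 averaged 15.99 in 2M, 15.96 in 3M and 15.91 in 4M, Sult1d1 5.74, 9.02 and 9.66 in that order of months, and in 3M Foxa1 and Lipe lay below all controls.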

How the data were processed

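Total RNA of breast tissue was labelled in 2 cycles and hybridised to Mouse430_2 arrays, 1 array per mouse. The authors summarised the arrays with GCRMA in GeneSpring GX and deposited linear intensities per probe set (2.03 to 144656) and, in a second table, log2 values centred on the median of each probe set, which differed from the first by at most 1.04e-06 once centred alike. Arrays carry no read depth, so precision was limited by their number, 5 in 3M and 10 in the controls. The genome build behind the probe sets is not given in the sources used here.

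Of 45101 probe sets, 64 controls were set aside. Of the rest, 34945 had 1 gene symbol, 932 several and 9160 none in the platform annotation, and 34741 were named through the RefSeq gene ID. A gene was represented by its probe set of 1 symbol with the highest mean over the 40 arrays, which gave 18193 genes. Group and replicate came from the titles. The log2 intensities were fitted with limma 3.58.1 in R 4.3.3 (lmFit and eBayes, 2 groups, two-sided), with Benjamini-Hochberg adjustment over 45037 probe sets. A call needed an adjusted p of at most 0.01 and a 5-fold difference, the limits of the study's methods. The p-values set each difference against the spread between arrays of different mice. In the pooled controls that spread also holds any difference between wild type and before activation.

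The text names the called genes with the largest differences (15 higher, skipping clone and predicted-gene names, and all 3 lower), the milk proteins, the study's markers, Actb and up to 4 members with the smallest p of each other list. Further members were named after their values were seen. The 32 lists held 477 names, of which 448 had a probe set. The members and lists were chosen with earlier results of these data known. 1 marker of the study is not reported here. The fit was tested on simulated data. The transcript of the transgene and the 1M, 5M and tumour arrays were not analysed here beyond the choice of probe sets and the fit of all groups. Alternatives tried were either control group alone, all 8 groups in 1 fit, the methods' t-test, quantile or median scaling, an offset of 16, a filter at a mean log2 intensity of 5, an intensity trend, the replicate number as a block, the centred table and each array left out. Leaving out the arrays with high T and B cell markers or with low spike-ins was chosen after seeing the data.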

Additional observations from a re-analysis of the deposited data

Results flagged for a closer look

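In groups of 5 arrays, 1 array stood far from the other 4 (a gap above 0.71 of the range of the group) in 59 of 525 groups tested over the named genes and the list means, and chance gives about 1 in 20. Values are log2 intensities. Among 3M arrays, replicate 3 was highest for Slc5a5 (8.08), Ucp1 (5.52), Wfdc3 (4.50) and the mean of the brown fat genes (6.49), replicate 4 was lowest for Ltf (14.0), Mmp2 (13.5) and Ndrg1 (14.2), replicate 1 was highest for Ier3 (12.8) and lowest for Lor (2.94), and replicate 2 was lowest for Acta2 (14.7).

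Before activation replicate 1 was highest in its group for Csn2 (10.9), Csn1s1 (10.9), Csn1s2a (8.36), Muc1 (9.56), Muc15 (13.1), Pigr (3.26), Lrr1 (6.75), Sgo1 (6.05), Spc24 (7.64), Fos (13.1) and Ier3 (11.5). Replicate 4 of that group was highest for the muscle list (12.5) and its genes Acta1 (15.4), Actn3 (12.3), Atp2a1 (13.8) and Myh4 (14.6). Replicate 5 was highest for Bbc3 (7.27) and Cp (12.5), replicate 2 for Mmp12 (5.07), and replicate 3 lowest for Rrm2 (6.68).

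Wild type replicate 2 was highest in its group for the means of the T cell (8.73), B cell (10.1), kinetochore (5.55), mitotic (7.03) and repair lists (5.81). The same array was highest for Ccr7 (8.72), Cd3g (9.20), Cd79b (11.3), Il7r (12.2), Trat1 (8.03), Blm (5.86), Cenpf (5.40), Exo1 (3.23), Fanca (5.66), Lrr1 (3.72), Ncapg (3.91) and Rad54b (3.37), and lowest for Slc2a4 (11.6). Wild type replicate 1 was highest for the epidermis list (10.1), Krt1 (6.57), Krtdap (8.87), Lor (10.9), Sbsn (12.7), Perp (11.2), Muc1 (9.59) and Csn1s1 (3.30). Csn2 was highest on wild type replicate 5 (2.50), Fos on replicate 4 (12.8), and Wfdc3 was lowest on replicate 3 (2.41).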

How the results depend on the processing

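With before activation alone as controls the 5-fold calls numbered 40 higher and 1 lower, the probe sets at an adjusted p of 0.05 numbered 522 higher and 213 lower (1598 and 1337 with all controls), and 86 list members were higher and 4 lower (166 and 19 with all controls). Without the arrays of high T and B cell markers there were 87 and 4 calls at 5-fold. Without the arrays of low spike-ins there were 124 and 1 calls at 5-fold, 1062 and 703 at 0.05, and 10 list members were lower. An offset of 16 left 2 lower calls at 5-fold and a filter on dim probe sets 5. Leaving out 1 array at a time gave 151 to 300 higher and 5 to 15 lower calls at 5-fold, 1045 to 1916 higher and 738 to 1952 lower at 0.05, and 146 to 173 higher and 12 to 26 lower list members, the lowest count of higher calls being without 3M replicate 1. The other alternatives, the methods' t-test included (228 higher and 6 lower at 5-fold, 1233 and 1120 at 0.05), stayed within 1.5 times each count. Against 2M the offset gave 2 probe sets that were higher at 0.05, and leaving out 1 array 0 to 1. Against 4M the fit of all groups gave 52 higher and 25 lower, leaving out 1 array 0 to 218 higher, 0 to 167 lower and 0 to 2 higher at 5-fold, and leaving out 3M replicates 2 and 5 and 4M replicate 2 383 higher, 288 lower and 2 higher at 5-fold. The causes were not tested. Of 87 genes named by the rule that passed, 56 passed under every alternative, and all 31 others were lost with before activation alone. Direction turned in 8 genes, none of which had passed: Actb (-0.01; 0.21 with wild type alone, 0.10 without low spike-ins, -0.17 to 0.095 without single arrays), Hba-a1 (-0.029 with wild type alone, -0.00049 after quantile and -0.036 after median scaling, -0.0012 without high T and B cell markers, -0.0031 to 0.016 without single arrays), Ccr7 (-0.18 with before activation alone, -0.40 to 1.58 without single arrays), Cd79b (-0.017 with before activation alone, -0.060 to 2.00 without single arrays), Krt1 (0.030 with before activation alone, -0.51 to 0.0087 without single arrays), Krtdap (0.037 with before activation alone, -0.75 to 0.0093 without single arrays), Sbsn (-0.039 without high T and B cell markers) and Trat1 (-0.00042 without high T and B cell markers, -0.35 to 0.95 without single arrays, -0.044 without 3M replicate 5). The replicate numbers were taken as numbers only, since not every pair correlated above 0.1: deviations of same-numbered arrays correlated at 0.0752 to 0.579 between 3M and wild type and at 0.246 to 0.692 between 3M and before activation, and 3 of 5 and 2 of 5 of the 3M arrays correlated best with their own number. With the replicate block 240 calls were higher and 6 lower at 5-fold, and 1978 probe sets were higher and 1506 lower at 0.05. Of the list members 179 were higher and 22 lower with the block. Of the named genes 9 newly passed and Oas1a no longer did. Members higher with the block numbered 2 for lactation regulators, 2 for the p53 pathway, 2 for B cells and 4 for macrophages. Signal near the floor limited the dim genes, since 52.2% of probe sets averaged below 5.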
